A study of Homo sapiens with 6 samples.

Results

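The mitochondrial ribosomal RNAs MT-RNR1 and MT-RNR2 and 5 nuclear copies of MT-RNR2 (MTRNR2L1, MTRNR2L2, MTRNR2L8, MTRNR2L10 and MTRNR2L12) were followed through RNA immunoprecipitation sequencing (RIP-seq) of poly(A)-binding proteins in HepG2, a human hepatocellular carcinoma line. They are the 7 genes of 58302 in both deposited tables whose gene name equals one of these symbols. The PABPC4 RIP libraries (2) came from cells labelled as overexpressing PABPC4, and the PABPC1 RIP libraries (2) from cells labelled as overexpressing PABPC1. The IgG control libraries (2) came from both overexpressing populations, 1 from each, so no group was made from unmodified HepG2 cells. Random primers were used in library construction, per the labels' protocols, so a poly(A) tail was not needed for an RNA to be sequenced. Nothing in the labels says that the 2 libraries of a group came from separate cultures, so p-values here cover the variation between these libraries alone, and that variation may be technical.

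MT-RNR1 is the 12S rRNA of the small subunit of the mitochondrial ribosome, and MT-RNR2 is the 16S rRNA of the large subunit. Both are transcribed with tRNAs and mRNAs as parts of long transcripts of the mitochondrial genome and are cut out at the flanking tRNAs. PABPC1 and PABPC4 are cytoplasmic proteins that bind the poly(A) tails of mRNA made in the nucleus, whereas human mitochondria add short tails to their RNAs with an enzyme of their own, MTPAP. The MTRNR2L genes are nuclear insertions that resemble MT-RNR2 and carry reading frames like that of humanin, a short peptide whose frame lies within MT-RNR2.

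In RefSeq GRCh38.p14, MT-RNR1 occupies MT:648-1601 and MT-RNR2 occupies MT:1671-3229, both annotated as rRNA genes. The copies lie on nuclear chromosomes and are annotated there as pseudogenes. MTRNR2L1 is at 17:22523415-22524663, MTRNR2L2 at 5:80650420-80651030 and MTRNR2L8 at 11:10507887-10509176. MTRNR2L10 is at X:55181392-55182442 and MTRNR2L12 at 3:96617186-96618223. The deposited folds fix the sum of the lengths of both rRNAs and allow 954 or 1991 nt for MT-RNR1, and the RefSeq lengths of 954 nt for MT-RNR1 and 1559 nt for MT-RNR2 were used. Whether a read that matches both MT-RNR2 and a copy was counted for one, for both or for neither is not stated in any source used here.

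The deposited tables hold folds and p-values only, and whole reads of each library were recovered from them by arithmetic. The recovered totals were 850190 and 841327 reads for PABPC4 RIP (libraries A and B), 289217 and 277552 for PABPC1 RIP, and 133030 and 94235 for IgG. These depths are low for whole transcriptomes, although MT-RNR1 alone had at least 13145 reads in every library. Hepatocyte genes summed to 8112 and 8721 RPM (reads scaled to a common library size) in PABPC4 RIP, 5975 and 6763 in PABPC1 RIP, and 3683 and 3502 in IgG, and 8 of 8 had a read, with ALB and APOB among the most abundant. Intervals given below are exact (Clopper-Pearson) 95% intervals and cover counting error only, since these PCR reads carry no molecular identifiers.

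MT-RNR2 was the most abundant gene and MT-RNR1 the next in all 6 libraries, and both took a smaller share of the PABPC4 and PABPC1 RIP libraries than of the IgG libraries. Together they made up 15.8% and 16.8% of reads in PABPC4 RIP, 41.0% and 35.5% in PABPC1 RIP, and 56.3% and 54.2% in IgG. The mean share was 16.3% ± 0.670 in PABPC4 RIP, 38.3% ± 3.93 in PABPC1 RIP and 55.2% ± 1.53 in IgG (SD, n = 2 each). The 3 groups did not overlap. With 2 libraries against 2, an exact two-sided permutation test cannot go below p = 0.333, which is the value for each pair of groups, so the replicated test is the model across all genes given below.

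MT-RNR2, the large-subunit rRNA, had 97477 and 100638 reads in PABPC4 RIP, 88362 and 73168 in PABPC1 RIP, and 55642 and 37888 in IgG. Its mean share was 11.7% ± 0.351 in PABPC4 RIP, 28.5% ± 2.96 in PABPC1 RIP and 41.0% ± 1.15 in IgG (SD, n = 2 each). PABPC4 RIP held the most MT-RNR2 reads and the lowest share, and these libraries were also the deepest.

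MT-RNR1, the small-subunit rRNA, had 37093 and 40501 reads in PABPC4 RIP, 30357 and 25319 in PABPC1 RIP, and 19280 and 13145 in IgG. Its mean share was 4.59% ± 0.319 in PABPC4 RIP, 9.81% ± 0.972 in PABPC1 RIP and 14.2% ± 0.385 in IgG (SD, n = 2 each). The order of the groups was the same as for MT-RNR2, and again no 2 groups overlapped. The PABPC1 RIP libraries were the least alike, with a combined rRNA share in library A (40.9% to 41.2%) above that in library B (35.3% to 35.7%) by more than their counting intervals.

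**Figure D1:**
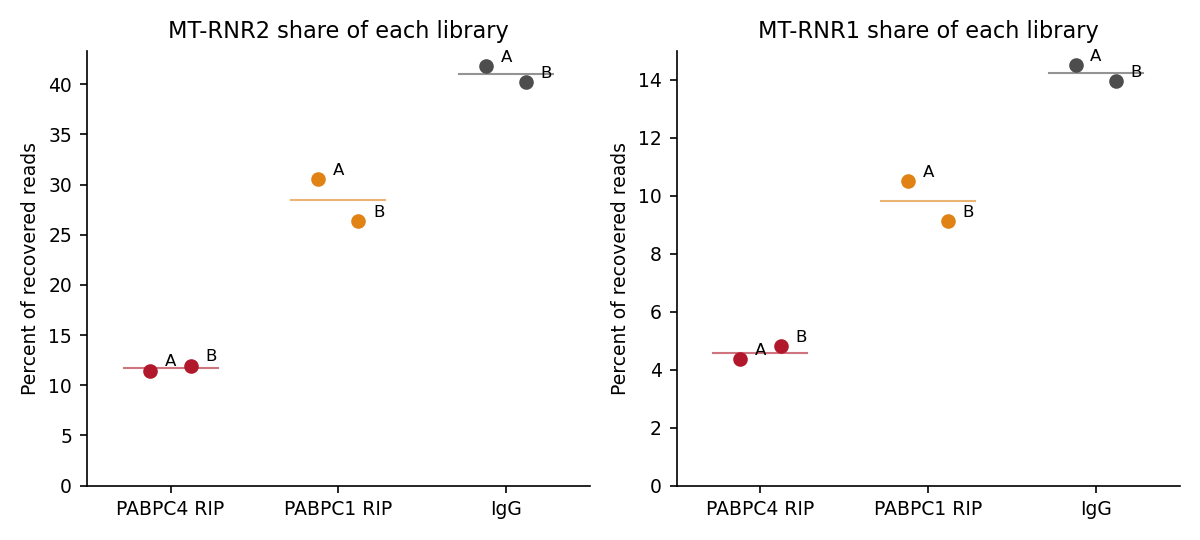
Share of recovered reads (percent, y axis) taken by MT-RNR2 (left) and MT-RNR1 (right) in each library of PABPC4 RIP, PABPC1 RIP and IgG. Points are libraries A and B and lines are group means; MT-RNR2 averages 11.7%, 28.5% and 41.0%, MT-RNR1 averages 4.59%, 9.81% and 14.2%, and no groups overlap.

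The next most abundant gene stood far below the rRNAs. In PABPC4 RIP it was MALAT1, a nuclear long non-coding RNA, with 17548 and 16729 reads. It was IGF2, a fetal growth factor mRNA, in PABPC1 RIP with 4938 and 5875 reads and in IgG with 1652 and 1383 reads. A share depends on what else a library holds, so rRNA was also set against reads of nuclear-encoded genes. There were 19.5 and 21.1 rRNA reads per 100 nuclear-encoded reads in PABPC4 RIP, 75.2 and 58.9 in PABPC1 RIP, and 140.1 and 127.9 in IgG. On this scale too the groups kept that order without overlap.

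In the authors' deposited table for PABPC4, the linear fold over IgG was 0.323 for MT-RNR1 and 0.286 for MT-RNR2, with p listed as 0 for both. In the authors' deposited table for PABPC1, the fold over IgG was 0.690 for MT-RNR1 and 0.694 for MT-RNR2, again with p listed as 0. These p-values equal a chi-square test on reads summed over libraries, so they leave out the spread between libraries. Of the 5 members with a p-value, 4 were listed lower at an adjusted p under 0.05 in the authors' deposited table for PABPC4, where 0.900% of 21455 genes were. In the authors' deposited table for PABPC1, 3 of the 5 were listed lower, where 0.194% of 17565 genes were. Both tables use the same pooled IgG libraries, so their values are not independent of each other.

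The comparison of PABPC4 RIP with IgG asks which RNAs came down with PABPC4 beyond what beads and rabbit IgG retain. It was tested on the recovered reads with limma voom (7990 genes, each with 10 reads or more in 2 or more libraries, median-of-ratios scaling, Benjamini-Hochberg adjustment over all of them). Relative to the median gene, MT-RNR1 was lower by a log2 fold of -2.59 (SE 0.064, limma voom adjusted p = 3.2e-25) and MT-RNR2 by -2.77 (SE 0.069, adjusted p = 3.2e-25). Both PABPC4 libraries were below both IgG libraries. Of the 7 members, 4 passed the filter on low reads, and 4 of these 4 were called lower, against 2.14% of all genes tested. In this comparison 31 of the 7990 genes had a log2 fold below that of MT-RNR2. The IgG libraries came from both overexpressing populations, and the PABPC4 RIP libraries from PABPC4-overexpressing cells only. Antibody and cell population therefore partly change together here, as they do for PABPC1 over IgG, and cannot be fully told apart.

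In PABPC1 RIP, which used an antibody against the abundant member of the family, the rRNAs were lower than in IgG by a smaller amount. The log2 fold over IgG was -1.03 for MT-RNR1 (SE 0.069, limma voom adjusted p = 1.3e-12) and -1.02 for MT-RNR2 (SE 0.069, adjusted p = 1.5e-12). Of the 4 members tested, 3 were called lower, against 0.513% of all genes tested. The rRNA folds were small among the genes called lower here, since 34 of the 41 such genes had a log2 fold below that of MT-RNR2.

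PABPC4 RIP was set against PABPC1 RIP directly in the same fit. The log2 fold of PABPC4 over PABPC1 was -1.56 for MT-RNR1 (SE 0.043, limma voom adjusted p = 1.0e-23) and -1.75 for MT-RNR2 (SE 0.045, adjusted p = 1.9e-24). Of the 4 members tested, 4 were called lower with PABPC4, against 2.20% of all genes tested. This contrast shares its PABPC4 and PABPC1 libraries with the comparisons against IgG. Antibody and overexpressed protein change together in it, so a difference between antibodies cannot be told apart from a difference between the cell populations.

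The size of these folds depends on what is held constant. Scaled to library totals, as the deposited folds are, the log2 fold of MT-RNR2 was -1.82 for PABPC4 over IgG, -0.54 for PABPC1 over IgG and -1.28 for PABPC4 over PABPC1. For MT-RNR1 the same scaling gave -1.64, -0.54 and -1.10. It moved the median of all genes tested to 0.90, 0.43 and 0.45 in the 3 contrasts, from -0.05, -0.04 and -0.03 in the main fit. Direction and call of both rRNAs were the same under either scaling.

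**Figure D2:**
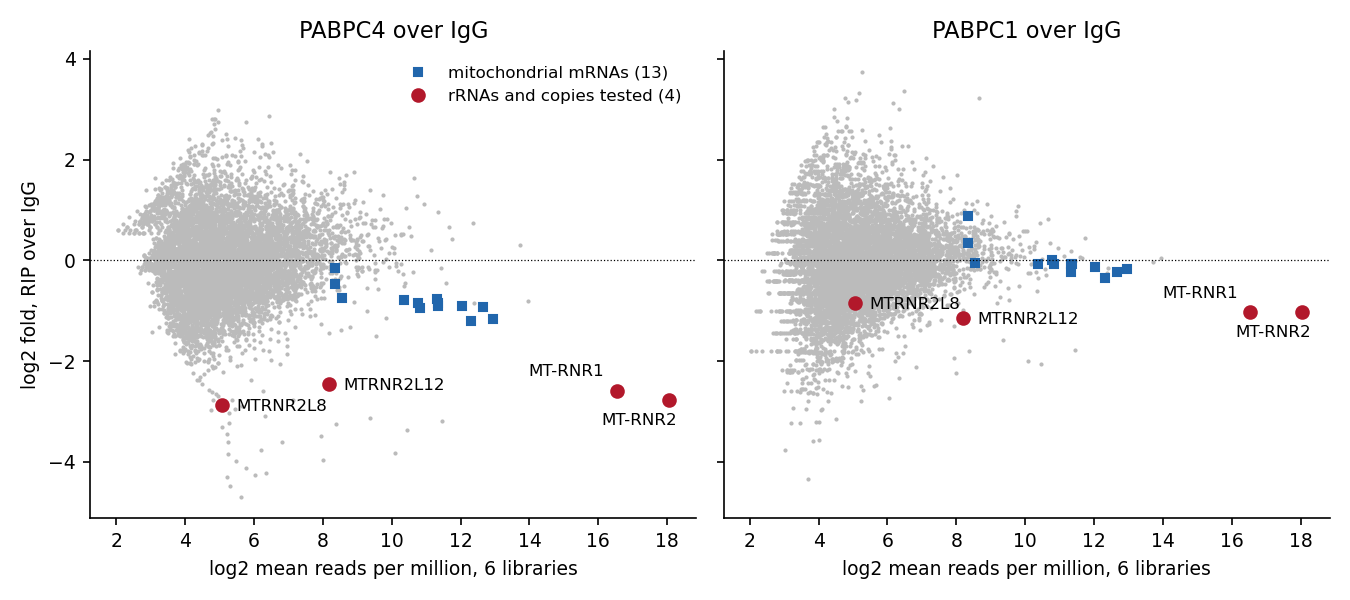
Log2 fold over IgG (y axis) against log2 mean RPM over the 6 libraries (x axis) for the 7990 genes tested, for PABPC4 (left) and PABPC1 (right). Grey points are genes, blue squares the 13 mitochondrial mRNAs and red circles the 4 members tested; MT-RNR1 and MT-RNR2 lie at the far right of both panels, at -2.59 and -2.77 for PABPC4 and at -1.03 and -1.02 for PABPC1.

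The rRNAs did not keep one ratio to each other across the groups. PABPC4 RIP held 2.63 MT-RNR2 reads per MT-RNR1 read in library A (2.60 to 2.66) and 2.48 in library B (2.46 to 2.51). The ratio was 2.91 and 2.89 in PABPC1 RIP and 2.89 and 2.88 in IgG. Both PABPC4 libraries therefore stood below the other 4, whose counting intervals lay between 2.83 and 2.95. The difference in group means was -0.33 for PABPC4 minus IgG (exact permutation p = 0.333, the smallest possible with 2 libraries each) and 0.016 for PABPC1 minus IgG, where the counting intervals overlap. PABPC4 libraries A and B also differed from each other beyond counting error.

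Per unit of length, the MT-RNR2 level was 1.61 and 1.52 times the MT-RNR1 level in PABPC4 RIP. It was 1.78 and 1.77 times in PABPC1 RIP, and 1.77 and 1.76 times in IgG. In RPKM (reads per kilobase of gene, scaled to library depth), MT-RNR2 averaged 75135 ± 2252 in PABPC4 RIP, 182534 ± 19005 in PABPC1 RIP and 263093 ± 7351 in IgG (SD, n = 2 each). MT-RNR1 averaged 48097 ± 3343 RPKM in PABPC4 RIP, 102822 ± 10184 in PABPC1 RIP and 149068 ± 4031 in IgG (SD, n = 2 each).

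The 13 mRNAs encoded beside the rRNAs in the mitochondrial genome, which specify subunits of the respiratory chain and ATP synthase, moved less than the rRNAs. There were 20.0 and 21.8 mitochondrial mRNA reads per 100 rRNA reads in PABPC4 RIP, 10.6 and 12.1 in PABPC1 RIP, and 6.15 and 6.45 in IgG. The groups did not overlap, and PABPC4 RIP had the most mRNA beside its rRNA. The rRNAs were 83.3% and 82.1% of all mitochondrially encoded reads in PABPC4 RIP, 90.4% and 89.2% in PABPC1 RIP, and 94.2% and 93.9% in IgG.

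Per length, the median mitochondrial mRNA stood at 2395 RPKM in PABPC4 RIP, 2835 in PABPC1 RIP and 2148 in IgG. The MT-RNR2 level was 31.4 times that median in PABPC4 RIP, 64.4 times in PABPC1 RIP and 122.5 times in IgG. For MT-RNR1 the multiples were 20.1 in PABPC4 RIP, 36.3 in PABPC1 RIP and 69.4 in IgG.

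**Figure D3:**
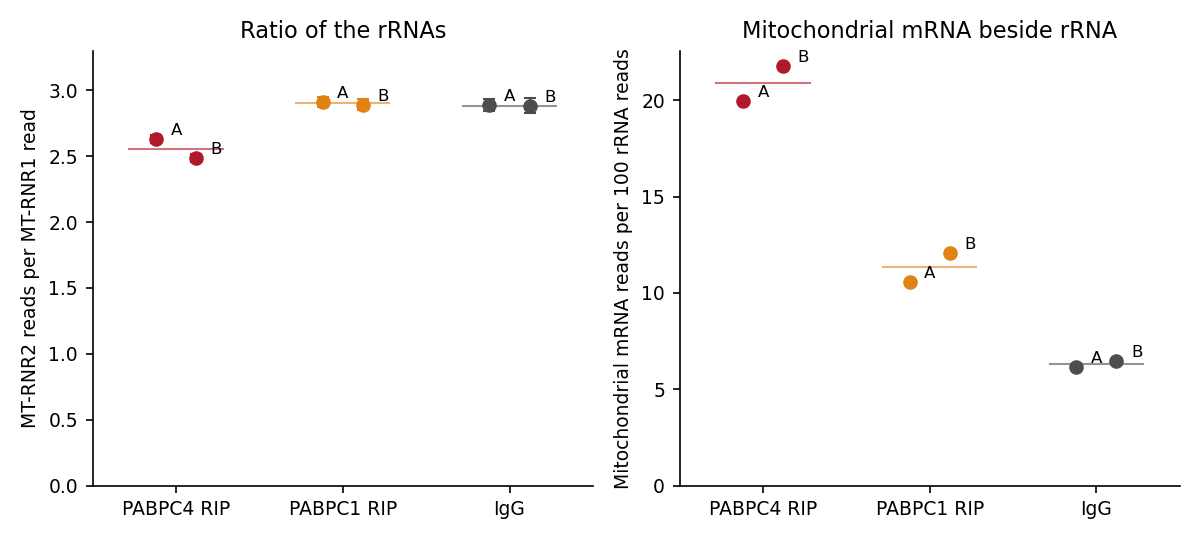
MT-RNR2 reads per MT-RNR1 read (left, bars are exact 95% counting intervals) and mitochondrial mRNA reads per 100 rRNA reads (right) in libraries A and B of PABPC4 RIP, PABPC1 RIP and IgG, with group means as lines. The left panel shows PABPC4 at 2.63 and 2.48 below the other 4 libraries, and the right panel shows 20.0 and 21.8 with PABPC4, 10.6 and 12.1 with PABPC1, and 6.15 and 6.45 in IgG.

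In the voom fit, 11 of the 13 mitochondrial mRNAs were lower in PABPC4 RIP than in IgG and none was called higher, where 2.14% of all genes were lower and 1.64% higher, with a median log2 fold of -0.85 beside -0.05 over all genes tested. MT-ND6, a complex I subunit and the one mRNA transcribed from the opposite strand, had the lowest value of the list at -1.21 (limma voom adjusted p = 1.3e-15). If strand was not used in counting, its reads cannot be told from those of transcripts running the other way. MT-ND4, another complex I subunit, was at -1.16 (adjusted p = 1.3e-11). MT-ATP8, a subunit of ATP synthase, was at -0.16 (adjusted p = 0.81) and MT-ND4L, a short complex I subunit, at -0.46 (adjusted p = 0.34), and neither passed. The value of each rRNA was below that of each of the 13 mRNAs, and their 95% intervals did not overlap.

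With PABPC1, 1 of the 13 mRNAs was lower than in IgG in the voom fit and none was called higher, where 0.513% of all genes were lower and 0.338% higher, with a median log2 fold of -0.07 beside -0.04 over all genes. That mRNA was MT-ND6, at -0.35 (limma voom adjusted p = 0.0066). Between the RIPs, 13 of 13 mRNAs were lower with PABPC4 than with PABPC1 and none higher, where 2.20% of all genes were lower and 2.05% higher, with a median of -0.79 beside -0.03 over all genes. The range was from -1.03 for MT-ATP8 to -0.67 for MT-CYB, the cytochrome b of complex III, against -1.56 and -1.75 for the rRNAs.

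Unlike the direction of the rRNAs, the calls for the mitochondrial mRNAs differed between the main voom fit and the deposited tables. Those tables differ from the fit in both scaling (library totals) and test (chi-square on summed reads). On library totals, 11 of the 13 were listed higher and none lower in the authors' deposited table for PABPC1, where 1.34% of genes were listed higher. In the authors' deposited table for PABPC4, 1 was listed higher (MT-ATP8, 1.79-fold) and 2 lower (MT-ND4 at 0.869 and MT-ND6 at 0.829). There 5.54% of genes were listed higher and 0.900% lower. The folds of MT-RNR1 and MT-RNR2 were below those of each of the 13 mRNAs in either table.

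**Figure D4:**
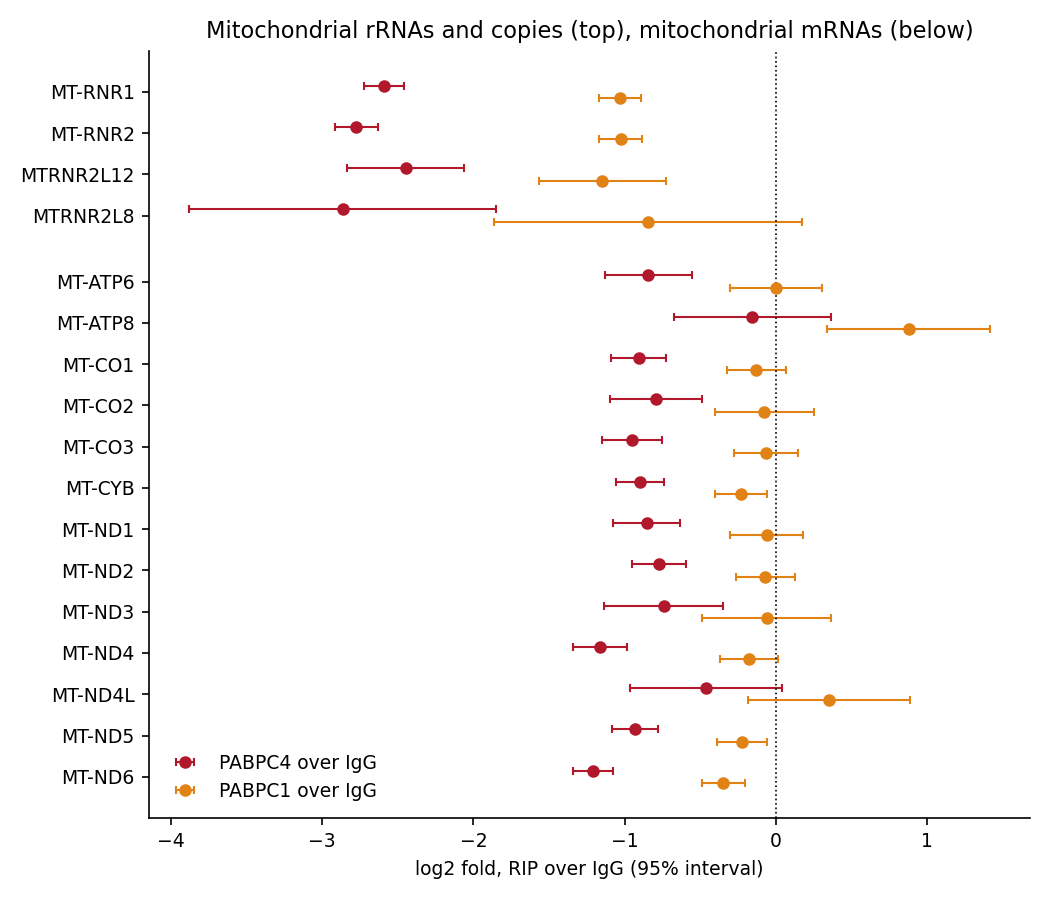
Log2 fold over IgG (x axis, bars are 95% intervals of the limma voom fit) for MT-RNR1, MT-RNR2, MTRNR2L12 and MTRNR2L8 (top) and for the 13 mitochondrial mRNAs (below), with PABPC4 in red and PABPC1 in orange. The rRNAs lie at -2.59 and -2.77 with PABPC4, left of all 13 mRNAs (-1.21 to -0.16), and at -1.03 and -1.02 with PABPC1.

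Mitochondrial tRNAs gave few reads. All 22 are in the tables and 17 had a read, summing to 51 and 41 reads in PABPC4 RIP, 38 and 20 in PABPC1 RIP, and 17 and 10 in IgG. MT-TC, the cysteine tRNA, was the one that passed the filter, with 12 and 9 reads in PABPC4 RIP, 23 and 5 in PABPC1 RIP, and 5 and 7 in IgG. Its log2 fold over IgG was -3.03 with PABPC4 (limma voom adjusted p = 0.0011) and -0.94 with PABPC1 (adjusted p = 0.52).

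Among the nuclear copies of MT-RNR2, MTRNR2L12 had the most reads and stood in the same order of groups as MT-RNR2. It had 129 and 136 reads in PABPC4 RIP, 86 and 72 in PABPC1 RIP, and 63 and 38 in IgG. Its level was 149.4 ± 6.69 RPKM in PABPC4 RIP, 265.4 ± 25.6 in PABPC1 RIP and 417.9 ± 47.4 in IgG (SD, n = 2 each), and no groups overlapped.

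The MTRNR2L12 log2 fold was -2.45 for PABPC4 over IgG (SE 0.19, limma voom adjusted p = 2.2e-11). It was -1.15 for PABPC1 over IgG (SE 0.21, adjusted p = 0.0018). For PABPC4 over PABPC1 it was -1.30 (SE 0.17, adjusted p = 1.7e-06). The call against IgG with PABPC1 was lost when the fit was scaled to library totals (log2 fold -0.67, limma voom adjusted p = 0.054). It was also lost without IgG library A (adjusted p = 0.14), PABPC1 library A (0.18) or PABPC1 library B (0.27), and the call of PABPC4 over PABPC1 was lost without PABPC1 library A (0.14) or B (0.063). In the authors' deposited table for PABPC4 its fold was 0.357 (adjusted p = 6.9e-18), and in the authors' deposited table for PABPC1 it was 0.635 (adjusted p = 0.024).

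MTRNR2L8 had 14 and 9 reads in PABPC4 RIP, 10 and 12 in PABPC1 RIP, and 7 and 4 in IgG. Its log2 fold was -2.86 for PABPC4 over IgG (SE 0.50, limma voom adjusted p = 0.00027) and -0.85 for PABPC1 over IgG (SE 0.50, adjusted p = 0.49). The interval of the PABPC1 value ran from -1.86 to 0.17, which at this depth includes both the fold of MT-RNR2 and no difference. For PABPC4 over PABPC1 it was -2.02 (SE 0.42, adjusted p = 0.0023). The call against IgG with PABPC4 was lost without PABPC1 library A (adjusted p = 0.055) or B (0.053), and the call of PABPC4 over PABPC1 without the same libraries (0.27 and 0.32). The authors' deposited table for PABPC4 listed it at 0.286 (adjusted p = 0.012), and the authors' deposited table for PABPC1 at 0.818 (adjusted p = 1.00).

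The remaining copies were at or near the limit of detection. MTRNR2L1 had 4 and 6 reads in PABPC4 RIP, 2 and 2 in PABPC1 RIP, and 0 and 0 in IgG. It was below the filter and was not tested. Its fold in the authors' deposited table for PABPC4 (762.2) comes from the 0.005 RPKM that the listed folds add to an IgG mean of 0, and its adjusted p there is 1. MTRNR2L2 and MTRNR2L10 had no read in any library, which allows up to 1.77 RPM in PABPC4 RIP, 5.29 in PABPC1 RIP and 13.2 in IgG (3 reads over each group).

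Because a copy can receive reads that match MT-RNR2, its reads were set against those of MT-RNR2 in the same libraries. MTRNR2L12 had 1.34 reads per 1000 MT-RNR2 reads in PABPC4 RIP (1.18 to 1.51), 0.978 in PABPC1 RIP (0.832 to 1.14) and 1.08 in IgG (0.879 to 1.31). By library the values were 1.32 and 1.35 in PABPC4 RIP, 0.973 and 0.984 in PABPC1 RIP, and 1.13 and 1.00 in IgG. The interval for PABPC4 lies above that for PABPC1 and overlaps that for IgG.

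MTRNR2L8 had 0.116 reads per 1000 MT-RNR2 reads in PABPC4 RIP (0.0736 to 0.174), 0.136 in PABPC1 RIP (0.0854 to 0.206) and 0.118 in IgG (0.0587 to 0.210). Its intervals overlapped in all 3 groups. For MTRNR2L1 the ratio was 0.0505 in PABPC4 RIP (0.0242 to 0.0928) and 0.0248 in PABPC1 RIP (0.00675 to 0.0634), and no read in IgG allows up to 0.0394. The share of the copies' reads that came from MT-RNR2 itself was not tested.

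**Figure D5:**
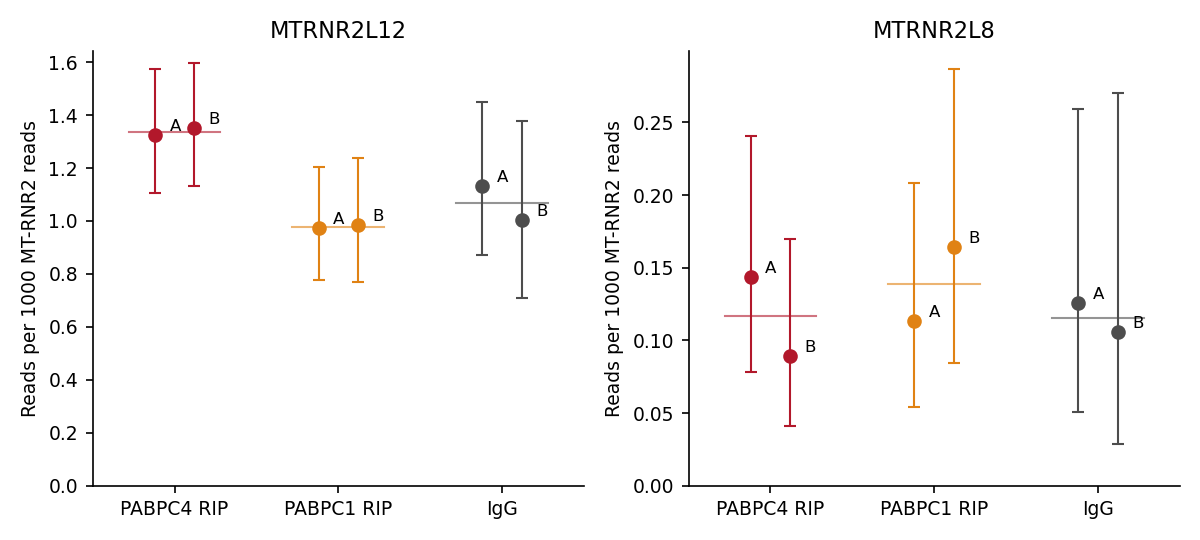
Reads of MTRNR2L12 (left) and MTRNR2L8 (right) per 1000 MT-RNR2 reads in libraries A and B of PABPC4 RIP, PABPC1 RIP and IgG, with exact 95% counting intervals as bars and group means as lines. MTRNR2L12 lies at 1.32 and 1.35 with PABPC4, 0.973 and 0.984 with PABPC1, and 1.13 and 1.00 in IgG; the intervals of MTRNR2L8 overlap throughout.

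Of 8 other MTRNR2L genes in the tables, 2 had a read. Nuclear copies of the mitochondrial mRNA genes were more numerous, with 392 in the tables and 64 with a read, of which 4 passed the filter of the voom fit. None was called in either of the authors' deposited tables, where 5.54% of genes were listed higher and 0.900% lower for PABPC4, and 1.34% higher and 0.194% lower for PABPC1. MTATP6P1, a copy of MT-ATP6, had 61 and 76 reads in PABPC4 RIP, 34 and 26 in PABPC1 RIP, and 15 and 13 in IgG. Its log2 fold over IgG was -1.60 with PABPC4 (limma voom adjusted p = 0.0010) and -0.74 with PABPC1 (adjusted p = 0.35). The values of MT-ATP6 itself were -0.84 and 0.00. MTATP6P1 was the 1 of the 4 tested copies called lower for PABPC4 over IgG, against 2.14% of all genes tested. MTND4P12 (-0.72), MTND2P28 (-0.63) and MTCO1P12 (-0.13) were not called there (limma voom adjusted p = 0.52, 0.52 and 0.94).

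Of 45 listed symbols for nuclear genes whose proteins make, modify or assemble mitochondrial rRNA, 44 matched a gene, and all 44 had a read. None of these genes was called in either of the authors' deposited tables. There 5.54% of all genes were listed higher and 0.900% lower for PABPC4, and 1.34% higher and 0.194% lower for PABPC1. In the voom fit 27 were tested, with 0 called by limma voom in each of the 3 contrasts (3, 3 and 2 at an unadjusted p under 0.05 for PABPC4 over IgG, PABPC1 over IgG and PABPC4 over PABPC1). Limma-trend also called 0, with 2, 3 and 0 at that unadjusted threshold. Over all 7990 genes tested, 1379, 1030 and 1300 were under it with limma voom, and 1391, 1396 and 529 with limma-trend. Since 0.338% to 2.20% of all genes tested were called in one direction of a contrast, a count of 0 among 27 is near the background and is no result about these genes. Their median log2 fold was 0.20 for PABPC4 over IgG, -0.03 for PABPC1 over IgG and -0.09 for PABPC4 over PABPC1. LRPPRC, which stabilises mitochondrial mRNAs, had the most reads, with 105 and 102 in PABPC4 RIP, 28 and 26 in PABPC1 RIP, and 8 and 6 in IgG. TFAM, which packages mitochondrial DNA and starts its transcription, had 58 and 46 reads in PABPC4 RIP, 15 and 21 in PABPC1 RIP, and 5 and 1 in IgG. TFB1M, which methylates the 12S rRNA, had 65 and 51 reads in PABPC4 RIP, 10 and 9 in PABPC1 RIP, and 2 and 4 in IgG.

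The genes whose pattern over the 6 libraries was most like that of MT-RNR2 were sought among 1852 other genes with at least 200 reads, by root mean square distance in centred log2 RPM. The nearest was B2M, the light chain of MHC class I, at a distance of 0.123. It had 55 and 54 reads in PABPC4 RIP, 41 and 34 in PABPC1 RIP, and 32 and 20 in IgG. The distance makes no allowance for counting error, so the order of genes with few reads is uncertain. Of the 5 named, HLA-E, a class I heavy chain, was the farthest at 0.402. Between them lay RN7SL3 (0.250), RN7SL2 (0.342) and RN7SL4P (0.364), which are genes and a pseudogene of 7SL, the RNA of the signal recognition particle. On the same scale MT-RNR1 was at 0.087 and MTRNR2L12 at 0.194. RN7SL2, the one RNA with reads in a list of cytosolic structural RNAs without a poly(A) tail, had 866 and 980 reads in PABPC4 RIP, 579 and 609 in PABPC1 RIP, and 663 and 513 in IgG. It was at 0.209 in the authors' deposited table for PABPC4 and at 0.402 in the authors' deposited table for PABPC1. Reads of 7SL genes can be split among near-identical copies.

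Among markers of blood, a cell type that a HepG2 culture should not hold, 4 of 6 moved with the rRNAs in the authors' deposited tables. The 6 blood markers summed to 728 and 582 RPM in PABPC4 RIP, 1255 and 1402 in PABPC1 RIP, and 3503 and 3608 in IgG, and none of them was at 0 reads in a group. HBB, the beta chain of adult haemoglobin, had 284 and 227 reads in PABPC4 RIP, 214 and 220 in PABPC1 RIP, and 293 and 210 in IgG. HBA1, HBA2, HBB and PTPRC, the leukocyte antigen CD45, were listed lower in both of the authors' deposited tables. Their folds were 0.097 to 0.189 with PABPC4 and 0.199 to 0.362 with PABPC1. These are 4 of 6 markers, where 0.900% of genes were listed lower for PABPC4 and 0.194% for PABPC1 in the authors' deposited tables. LYZ and CD74 were not called there, with folds of 1.02 and 1.06 for PABPC4 and 1.16 and 1.12 for PABPC1. In the voom fit 5 of the 6 were lower in PABPC4 RIP than in IgG, with LYZ, the lysozyme of myeloid cells, at a log2 fold of -0.97 (limma voom adjusted p = 0.044). With PABPC1, 4 of the 6 were lower than in IgG, and 4 of the 6 were lower with PABPC4 than with PABPC1. Over all genes tested in that fit, 2.14% were called lower for PABPC4 over IgG. The share was 0.513% for PABPC1 over IgG and 2.20% for PABPC4 over PABPC1. HBA1 and HBA2 are near-identical, so the split of reads between them is uncertain. The 4 fibroblast markers summed to 23.5 and 15.5 RPM in PABPC4 RIP, 51.9 and 50.4 in PABPC1 RIP, and 218.0 and 201.6 in IgG. These sums rest on few reads, from 18 for VIM to 32 for COL1A2 over the 6 libraries. Of the 4, 0 passed the filter of the voom fit. In the authors' deposited tables, 4 of the 4 were listed lower for PABPC4, where 0.900% of genes were. For PABPC1, 2 of the 4 were listed lower, where 0.194% of genes were. These were COL1A1, at 0.066 with PABPC4 and 0.148 with PABPC1, and COL6A2, at 0.071 and 0.093. The marker sums are shares of pulldown libraries and do not measure how many cells of a type were present. The source of these RNAs and their part in the rRNA result were not tested.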

How the data were processed

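RIP-seq was measured in 6 HepG2 libraries: 2 PABPC4 RIP, 2 PABPC1 RIP and 2 IgG. For each antibody the authors deposited a table of its comparison with IgG (2 in all). Per the file headers they hold a linear fold (a ratio) and a p-value with its Benjamini-Hochberg adjustment, and 0 columns of single libraries. Per the submitters' processing notes, the tools were featureCounts 2.0.1, STAR 2.7.10a and Bowtie2 2.4.1, with build GRCh38/hg38. No source used here states whether strand was used in counting.

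Whole reads were solved from these values. The deposited p-value is that of a Yates-corrected chi-square test on summed reads, and the deposited fold is the mean RPKM of the RIP over the IgG mean plus 0.005. Reads of all 6 libraries came out for 22142 of 22607 genes with a read, and the other 465, with IgG reads only, have sums (524 reads). Recomputed folds differed from the deposited ones by at most 5.1e-15 (relative). The rRNA p-values are listed as 0, so rRNA reads were solved from both folds and the reads that the other genes leave of each total. Lengths of 954 and 1991 nt for MT-RNR1 gave whole reads, and RefSeq's 954 was used. On simulated tables of 20284 genes the method returned the right reads for 20142 genes, sums for 140 and 0 wrong sets, and the MT-RNR1 reads of 6 of 6 libraries. The recovery gives no replicate number, so libraries are called A (the larger total) and B, and the IgG libraries cannot be assigned to their cell populations.

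The recovered reads were tested with limma 3.58.1 (voom) in R 4.3.3, with 3 groups, 3 residual and 28.6 prior degrees of freedom. Since the tables hold no counts, a negative binomial test was not used. Alternatives were another scaling, no filter, limma-trend and leaving out each library. The text names all 7 members and, of each list, only some of the genes. A list gene that is not named may still have been called in a deposited table. It also names the 5 genes most like MT-RNR2. Members and lists were chosen with earlier results of these data known. Gene names were matched to RefSeq GRCh38.p14 for 7 of 7 members.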

Additional observations from a re-analysis of the deposited data

How the results depend on the processing

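For MT-RNR1 and MT-RNR2, 84 of 84 recomputed values kept their direction and call. Their log2 folds ranged from -2.87 to -1.64 (PABPC4 over IgG), from -1.19 to -0.54 (PABPC1 over IgG) and from -1.92 to -1.10 (PABPC4 over PABPC1). Scaled by the median of ratios or nuclear totals, the deposited fold of MT-RNR2 moved to as low as 0.147 for PABPC4 and 0.501 for PABPC1. Without mitochondrial mRNA in the denominator the IgG rRNA share was 57.2%. The rRNA share without one library was 15.8% to 16.8% in PABPC4, 35.5% to 41.0% in PABPC1 and 54.2% to 56.3% in IgG.

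The number of genes called by limma voom was less stable than the rRNA values. Of 302 genes called for PABPC4 over IgG, scaling to library totals gave 2344 and no filter 9337. The fit with no filter tested 22142 genes, against 7990 in the main fit, and its median log2 fold for PABPC4 over IgG was -1.24. Of 68 for PABPC1 over IgG, library totals gave 384 and limma-trend 42. Of 340 for PABPC4 over PABPC1, library totals gave 1162, no filter 1824 and limma-trend 30. The fits without PABPC4 library A or B tested 4382 and 4375 genes, and those without another library 7977 to 7987, so counts differ in base. Leaving out 1 library gave 82 to 294, 5 to 110 and 16 to 598 genes. For PABPC4 over IgG the count was 82 and 90 without PABPC1 A or B, and 159 without IgG A. For PABPC1 over IgG it was 110 and 106 without PABPC4 A or B, 7 and 5 without PABPC1 A or B, and 42 without IgG A. For PABPC4 over PABPC1 it was 598 without PABPC4 B, and 24 and 16 without PABPC1 A or B. The MTRNR2L8 call of PABPC4 over PABPC1 was lost with limma-trend (adjusted p = 0.16). On the deposited test, the MTRNR2L8 call with PABPC4 was lost without either IgG library (adjusted p = 0.90 for A and 0.063 for B) or PABPC4 library B (0.11). The MTRNR2L12 call with PABPC1 was lost there without either IgG library (1.00 for A and 0.062 for B) or PABPC1 library B (0.30). The cause was not tested. No paired analysis was possible because the recovered libraries carry no replicate number. Depth limits the copies with under 30 reads in a group, MTRNR2L8 and MTRNR2L1.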
